A study of Mus musculus with 14 samples.

Results

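The miR-130 and miR-301 family is a group of microRNAs (miRNAs), short RNAs that guide the silencing complex to messenger RNAs, and it was followed here in small extracellular vesicles (sEVs) shed by mouse neutrophils. Its members were taken by name: mmu-miR-130a-3p, mmu-miR-130b-3p, mmu-miR-130b-5p, mmu-miR-301a-3p, mmu-miR-301a-5p and mmu-miR-301b-3p (mmu, for mouse, is left off from here on), 6 of the 1695 mature miRNA names counted. The vesicles came from primary Ly6G+ bone marrow cells of wild-type female BALB/c mice, cultured for 48 h. In 7 libraries the cells had received 10 µM 27HC, the oxysterol 27-hydroxycholesterol, and in the other 7 the solvent DMSO. The labels number the libraries of each group 1 to 7 and do not say whether they came from separate animals or cultures, so p-values here measure the spread between these libraries, which may be technical. The library descriptions also carry pairs of consecutive numbers, whose meaning is not stated. Vesicle RNA is a mixture, and a smaller number of vesicles of a kind cannot be told apart from less of a miRNA per vesicle.

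A miRNA hairpin yields a 5p and a 3p arm, and in this family the 3p arm is the guide strand, which pairs with target messages mainly through its seed, bases 2 to 8 counted from the 5′ end. Members with the same seed are predicted to share many targets. In granulocyte development miR-130a is known for restraining the transcription factor C/EBP epsilon, and miR-301a is known as an activator of NF-κB signalling through its repression of the inhibitor NKRF.

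The RefSeq mature sequences of the guide strands that the comparison turns on are given next, 5′ to 3′, with the seed in capitals, to show that the seed is the same in all of them and that the members differ only downstream of it.
miR-130a-3p: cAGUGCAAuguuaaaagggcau
miR-130b-3p: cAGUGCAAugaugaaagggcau
miR-301a-3p: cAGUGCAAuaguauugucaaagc

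Relative to miR-130a-3p, miR-130b-3p carries the substitutions U11A and A13G, counted from 1 at the 5′ end, and is otherwise the same along its 22 bases. A sequencing error that exchanged either of these bases would leave a read equally close to both names. How the authors assigned such reads is not given in the sources used here. miR-301a-3p is 23 bases long, shares its first 9 bases with miR-130a-3p and runs differently after them, so that its full-length reads are told apart more easily. The other arms have other seeds and are shown because they report on the same hairpins.
miR-130b-5p: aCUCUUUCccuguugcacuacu
miR-301a-5p: gCUCUGACuuuauugcacuacu

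A mature sequence was found in RefSeq (GRCm38.p6) for 5 of the 6 members, miR-301b-3p being named only. The family comes from 4 hairpins at 3 places in GRCm38.p6. Mir130a lies on chromosome 2 at 84741115 to 84741178 on the minus strand, with no other annotated gene over it. Mir130b, at 17124061 to 17124142, and Mir301b, at 17124400 to 17124496, lie on the minus strand of chromosome 16, with 257 bases between them, both in an intron of the protein-coding gene 2610318N02Rik, which is on the same strand. Mir301, the source of miR-301a, lies on the plus strand of chromosome 11 at 87113004 to 87113089, in an intron of Ska2, a protein-coding gene for a kinetochore component.

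Depth differed between libraries, from 112914 to 871189 counts, and it was lower in replicates 5 to 7 (112914 to 252014 counts) than in replicates 1 to 4 (229324 to 871189 counts, with 265651 as the lowest DMSO total there). Levels are given as counts per 1000000 counts (CPM) with library sizes scaled by TMM. The neutrophil label was checked on miR-223-3p, a miRNA abundant in granulocytes, whose average was 142783 CPM with DMSO against 119314 CPM with 27HC. Markers of other cell types were all present. Summed levels in DMSO and 27HC libraries were 962 to 2053 and 1403 to 2127 CPM for 5 erythroid names, 1765 to 2131 and 1454 to 2287 CPM for 3 lymphoid names, and 540.4 to 1042 and 519 to 1130 CPM for 2 endothelial and platelet names. They were 746 to 2197 and 816 to 2100 CPM for 6 stromal names, 2739 to 4698 and 1973 to 3880 CPM for 2 liver and serum names, and 188 to 471 and 288 to 522 CPM for 5 epithelial names. None of these markers was at 0 over all libraries. The erythroid miR-486a-5p and miR-486b-5p each had 2995 counts and the same mean levels. The stromal miR-199a-3p and miR-199b-3p likewise each had 2054 counts and the same mean levels. The erythroid and stromal sums may therefore hold the same reads more than once. Among all the markers the lymphoid miR-150-5p (log2 fold change −0.97) and, in the myeloid list, miR-142a-3p (−1.53) and miR-142a-5p (−0.74) were lower with 27HC. The other names of those lists were not called, at −0.079 for miR-181a-5p, 0.10 for miR-181b-5p, −0.26 for miR-223-3p and 0.17 for miR-223-5p, and the part of cell composition in the results on the family was not tested.

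In the vesicles of DMSO-treated neutrophils the family was carried almost wholly by the guide strands of miR-130b and miR-130a. In DMSO libraries miR-130b-3p stood at 1074 ± 70.4 CPM, miR-130a-3p at 981 ± 134 CPM, miR-301a-3p at 139 ± 61.7 CPM, miR-130b-5p at 40.3 ± 15.02 CPM and miR-301b-3p at 15.6 ± 5.86 CPM (SD, n = 7 each). miR-301a-5p came last, with 4 counts over the 7 libraries. The levels of miR-130b-3p and miR-130a-3p, neighbours in this order, overlapped between libraries, whereas miR-301a-3p stayed below both in each of the DMSO libraries. The members are of nearly equal length, but how well each sequence enters a library was not measured, so the order is one of counts. Among all names, miR-130b-3p ranked 63, miR-130a-3p 66 and miR-301a-3p 149 by mean level in DMSO. With 27HC the order of the most abundant pair was the other way round, at 1063 ± 142 CPM for miR-130a-3p and 917 ± 95.4 CPM for miR-130b-3p (SD, n = 7 each), and miR-301a-3p moved to rank 213.

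**Figure D1:**
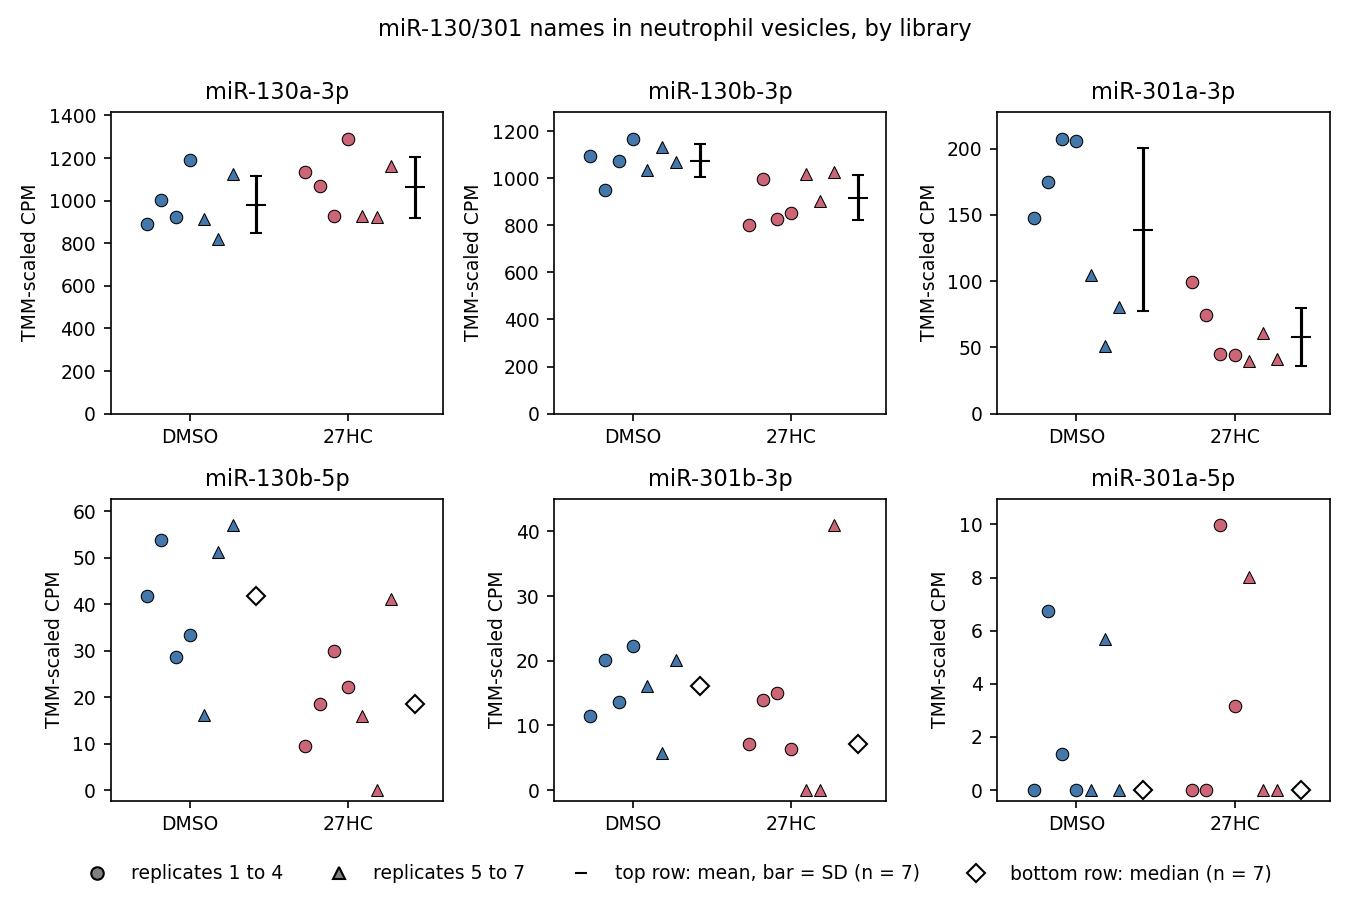
TMM-scaled CPM of the 6 members in each library, DMSO in blue and 27HC in red, with circles for replicates 1 to 4 and triangles for replicates 5 to 7; the top row adds the mean and SD (n = 7) and the bottom row the median. miR-301a-3p lies between 51.2 and 207.2 CPM in DMSO and between 40.1 and 99.4 CPM in 27HC libraries. miR-130a-3p lies between 819 and 1189 CPM in DMSO and between 926 and 1289.8 CPM in 27HC libraries.

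The question put to the data was whether 27HC changed these levels. Of the 6 members, 3 had enough counts to be tested, all of them guide strands, and 1 of those 3 was called at a Benjamini-Hochberg adjusted p under 0.05 in edgeR's quasi-likelihood test. Over all 239 tested names 12.6% were called, 8.79% lower and 3.77% higher with 27HC, and a count of 1 in 3 is too small to be set apart from that background. The 3 tested members had a median log2 fold change of −0.23, against 0.010 over all tested names. None of the 3 had groups without overlap, a state that 5.44% of tested names showed.

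miR-301a-3p, the family member hosted by Ska2, was the one that fell with 27HC. Its levels in DMSO replicates 1 to 7 were 148.0, 174.8, 207.2, 206.0, 104.2, 51.2 and 80.5 CPM, from 39, 52, 152, 74, 13, 9 and 24 counts. In 27HC replicates 1 to 7 they were 99.4, 74.2, 44.9, 44.3, 40.1, 61.2 and 41.0 CPM, from 42, 16, 9, 14, 5, 8 and 5 counts. The groups overlapped only at the low end of DMSO: 5 DMSO libraries were above the highest 27HC library, 4 of the 27HC libraries were below the lowest DMSO library, and all 7 were below the DMSO median. The mean went from 139 ± 61.7 to 57.9 ± 22.2 CPM (SD, n = 7 each). The fitted log2 fold change was −1.24 (SE 0.33, 95% interval −1.94 to −0.55), a 2.36-fold lower level, with an edgeR adjusted p of 0.0193. Of the 239 tested names, 5 had a lower log2 fold change and 19 a smaller adjusted p.

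The call rested on few counts, with 99 counts of miR-301a-3p in all 27HC libraries against 363 in DMSO, and on particular libraries. Leaving out each library in turn ended the call in 3 of 14 fits: without DMSO replicate 3 the log2 fold change was −1.04 (edgeR adjusted p 0.0606), without 27HC replicate 3 it was −1.17 (adjusted p 0.0522) and without 27HC replicate 4 it was −1.12 (adjusted p 0.0520). DMSO replicate 3 was the deepest library of the series. The direction was lower in all 14 of these fits.

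**Figure D2:**
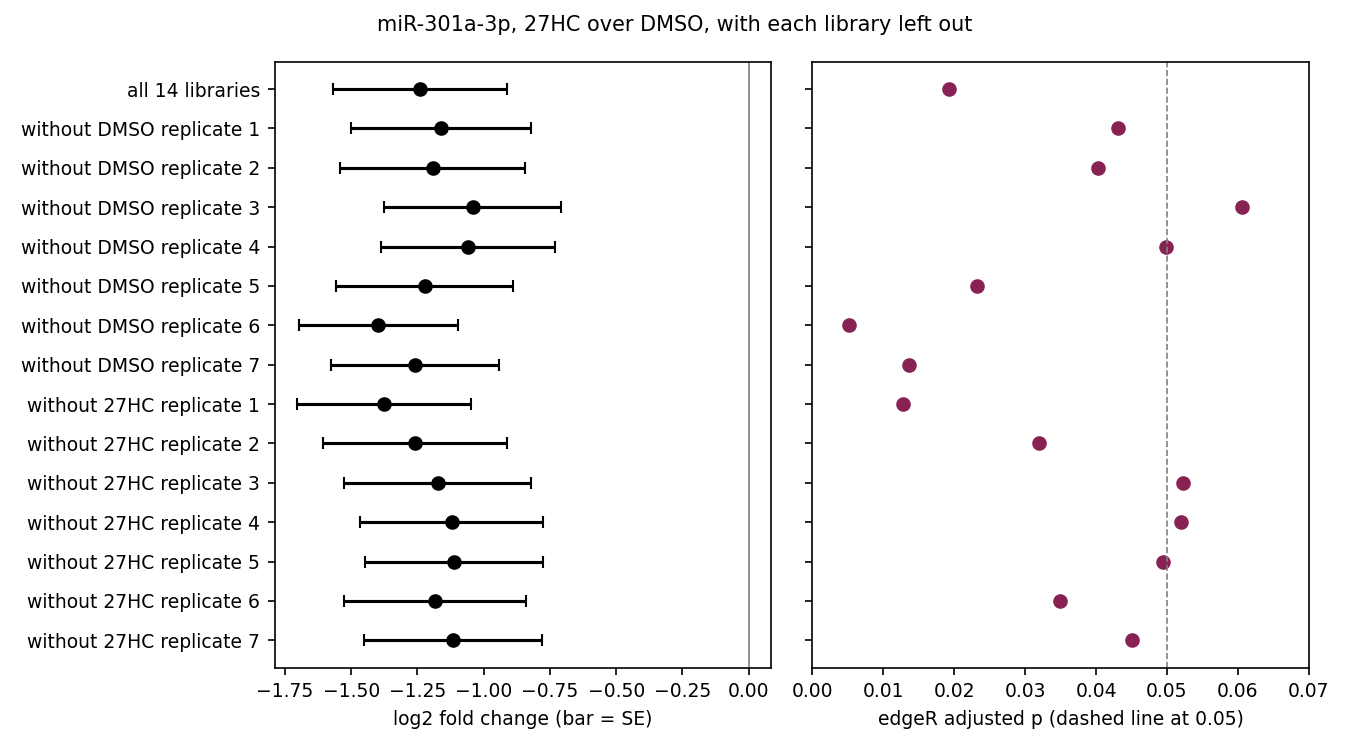
Log2 fold change of miR-301a-3p with its SE (left) and edgeR adjusted p (right) in the fit of all 14 libraries and in the 14 fits with a library left out; the dashed line marks 0.05. The fold changes run from −1.40 to −1.04, and the adjusted p passes 0.05 without DMSO replicate 3, 27HC replicate 3 or 27HC replicate 4.

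The level of miR-301a-3p also moved with the replicate number within the DMSO group. DMSO replicates 1 to 4 held 184 ± 28.3 CPM (SD, n = 4) and DMSO replicates 5 to 7 held 78.6 ± 26.6 CPM (SD, n = 3). The 27HC libraries held 65.7 ± 26.4 CPM (SD, n = 4) and 47.4 ± 11.9 CPM (SD, n = 3) in the same sets, which an earlier analysis of these data had set apart and which no label explains. Within replicates 1 to 4 the groups did not overlap, at 148.0 to 207.2 CPM against 44.3 to 99.4 CPM, as was the case for 21.8% of tested names in that set.

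In one fit over both sets the log2 fold change of miR-301a-3p was −1.46 (SE 0.30, edgeR adjusted p 0.00240) in replicates 1 to 4, where 15.5% of tested names were called. It was −0.70 (SE 0.42, edgeR adjusted p 0.552) in replicates 5 to 7, where 4.60% were called and where 46 DMSO and 18 27HC counts carried the comparison. The difference between the sets, 0.76 (SE 0.53), had an edgeR adjusted p of 0.540, and 0 of the 239 tested names had an adjusted p under 0.05 for it (24 names, 10.0%, had an unadjusted p under 0.05, and DESeq2 called 3). Depth differed between the same sets, and with the log2 library total as a covariate the fold change of miR-301a-3p was −0.98 (edgeR adjusted p 0.0297).

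miR-130b-3p, made from the cluster on chromosome 16, was slightly lower with 27HC and was not called. Its levels in DMSO replicates 1 to 7 were 1093, 948, 1074, 1167, 1034, 1132 and 1069.6 CPM. In 27HC replicates 1 to 7 they were 799.6, 997, 828, 850.4, 1018, 903 and 1025 CPM. All 7 of the 27HC values lay below the DMSO median, 4 of them below the lowest DMSO value, and DMSO replicate 2 was the only DMSO library within the 27HC range. The log2 fold change was −0.23 (SE 0.095, 95% interval −0.43 to −0.029), with an unadjusted p of 0.0277 and an edgeR adjusted p of 0.136, where 22.2% of tested names had an unadjusted p under 0.05. Under upper-quartile scaling it was called, at −0.32 with an adjusted p of 0.0339. The effect was −0.30 in replicates 1 to 4 and −0.14 in replicates 5 to 7 (edgeR adjusted p for the difference 0.749). Within replicates 5 to 7 the groups of miR-130b-3p did not overlap, at 1034 to 1132 CPM against 903 to 1025 CPM, as was the case for 20.5% of tested names in that set.

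miR-130a-3p, the member linked with granulocyte development, did not pass the test, and its fitted change was above 0. Its levels in DMSO replicates 1 to 7 were 892, 1005, 923, 1189, 914, 819 and 1127 CPM. In 27HC replicates 1 to 7 they were 1136, 1067, 928, 1289.8, 929.9, 926 and 1164 CPM. The groups overlapped, with 1 27HC library above the highest DMSO library and none below the lowest. At the low end, 4 DMSO libraries were below the lowest 27HC library. Of the 7 27HC libraries, 0 were below the DMSO library of the same number, though the numbers are not known to pair libraries. The log2 fold change was 0.12 (SE 0.12, 95% interval −0.13 to 0.36, edgeR adjusted p 0.648), so the interval leaves room for a fall to 0.914 times or a rise to 1.28 times the DMSO level. It was 0.14 in replicates 1 to 4 and 0.074 in replicates 5 to 7.

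The remaining members were too scarce for the test. miR-130b-5p, the other arm of miR-130b, had 11, 16, 21, 12, 2, 9 and 17 counts in DMSO replicates 1 to 7. In 27HC replicates 1 to 7 it had 4, 4, 6, 7, 2, 0 and 5 counts. The median was 41.7 CPM with DMSO and 18.6 CPM with 27HC, with 3 of the 27HC libraries below the lowest DMSO library. A fit with no filter on low counts gave miR-130b-5p a log2 fold change of −1.12 (SE 0.53, unadjusted p 0.0329, edgeR adjusted p 0.383), which was not called. In that fit the median log2 fold change was −0.19, and 182 of 1695 names had an unadjusted edgeR p under 0.05. miR-130b-5p supplied 3.62% ± 1.40 of the reads of both miR-130b arms in DMSO (SD, n = 7, 88 of 2512 counts in all) and 2.06% ± 1.34 with 27HC (SD, n = 7, 28 of 1386 counts).

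miR-301b-3p, which shares the chromosome 16 cluster with miR-130b, had 3, 6, 10, 8, 2, 1 and 6 counts in DMSO replicates 1 to 7 and 3, 3, 3, 2, 0, 0 and 5 counts in 27HC replicates 1 to 7. At these depths a count of 0 allows up to 24.1 CPM in 27HC replicate 5 and 23.0 CPM in 27HC replicate 6, by the limit of 3 counts and for counting error only, so a difference of this member was not detectable. miR-301a-5p had 4 counts in each group, spread over 3 libraries of each. The other names with the family's seed or arms, miR-130c, miR-721, miR-6389, miR-130a-5p and miR-301b-5p, had between 1 and 6 counts each over all 14 libraries.

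**Figure D3:**
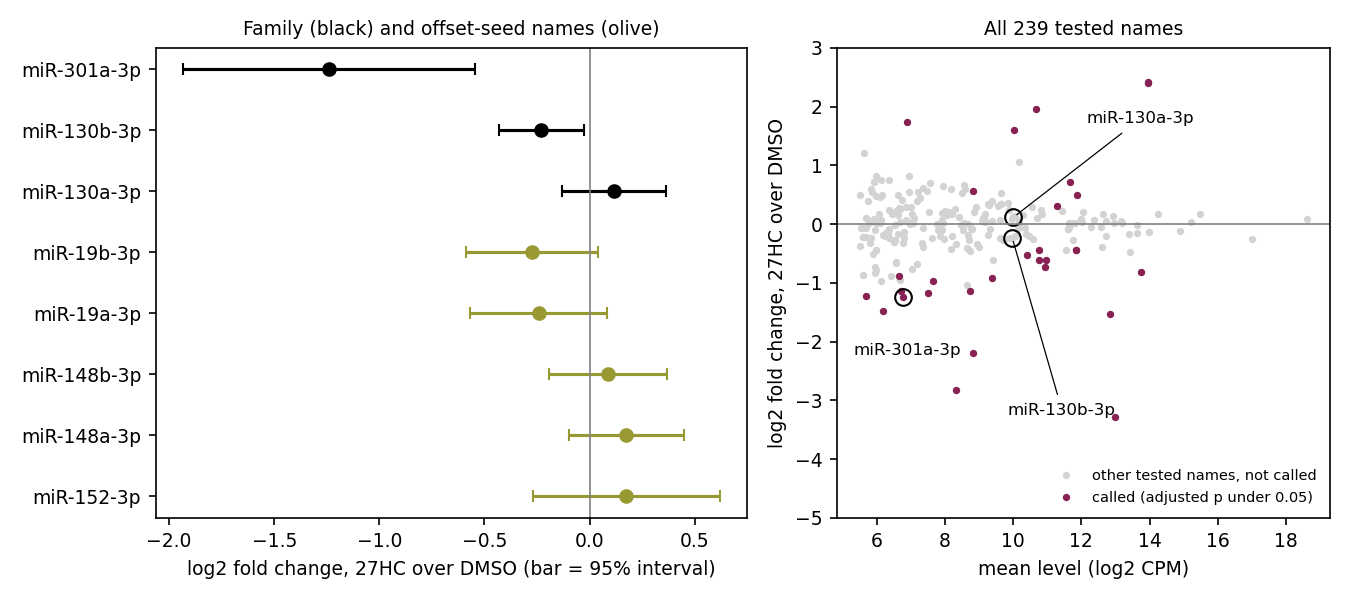
Left, log2 fold change of 27HC over DMSO with its 95% interval for the tested members (black) and for tested names whose seed is shifted by a base (olive); right, log2 fold change against mean log2 CPM for all 239 tested names, with the 30 called names in purple and the members circled. The interval of miR-301a-3p runs from −1.94 to −0.55, apart from the interval of miR-130a-3p at −0.13 to 0.36.

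Because ratios within a library need no scaling between libraries, the 3 guide strands were compared with each other in this way. All 3 ratios differed between the groups (exact two-sided permutation test over 3432 splits, where the smallest possible p is 0.000583, adjusted over the 3 ratios). The ratios are not independent, and how often ratios between other tested names differ by this test was not computed. On the log2 scale, miR-301a-3p over miR-130a-3p is the sum of miR-301a-3p over miR-130b-3p and miR-130b-3p over miR-130a-3p. miR-301a-3p was equal to 16.6, 17.4, 22.5, 17.3, 11.4, 6.25 and 7.14% of miR-130a-3p in DMSO replicates 1 to 7. With 27HC these values were 8.75, 6.96, 4.84, 3.43, 4.31, 6.61 and 3.52%. The mean fell from 14.1% ± 5.98 to 5.49% ± 1.999 (SD, n = 7 each), a log2 difference of −1.26 (exact permutation p 0.00466, adjusted 0.0140), and 6 of 7 libraries were lower than the DMSO library of the same number. This difference held in all 14 comparisons that left out a library, with adjusted exact p between 0.00699 and 0.0262.

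miR-301a-3p also fell relative to miR-130b-3p, from 13.01% ± 5.80 to 6.46% ± 2.94 (SD, n = 7 each). The log2 difference was −0.91 (exact permutation p 0.0315, adjusted 0.0315), and 6 of 7 libraries were lower than the DMSO library of the same number. It was past the threshold by little: without DMSO replicate 2, 3 or 4 the differences were −0.80, −0.79 and −0.81, and without 27HC replicate 5 or 7 they were −0.82 and −0.82, with adjusted exact p of 0.0536 to 0.0559.

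miR-130b-3p stood at 123, 94.3, 116, 98.1, 113, 138 and 94.9% of miR-130a-3p in DMSO replicates 1 to 7. With 27HC it stood at 70.4, 93.5, 89.2, 65.9, 109, 97.5 and 88.0%. So miR-130b-3p was on average the more abundant of this pair in DMSO, at 111% ± 16.4, and the less abundant with 27HC, at 87.7% ± 15.2 (SD, n = 7 each). The log2 difference was −0.35 (exact permutation p 0.0146, adjusted 0.0219), and 7 of 7 libraries were lower than the DMSO library of the same number. Neither member was called by its own level.

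In replicates 1 to 4 the log2 differences of the 3 ratios were −1.66, −1.22 and −0.44, in the order given above, each with an exact permutation p of 0.0286, the smallest that 4 libraries against 4 allow. In replicates 5 to 7 they were −0.72, −0.50 and −0.22 with exact permutation p of 0.2, 0.2 and 0.3, where the smallest possible p is 0.1. The direction was the same in both sets for each ratio.

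**Figure D4:**
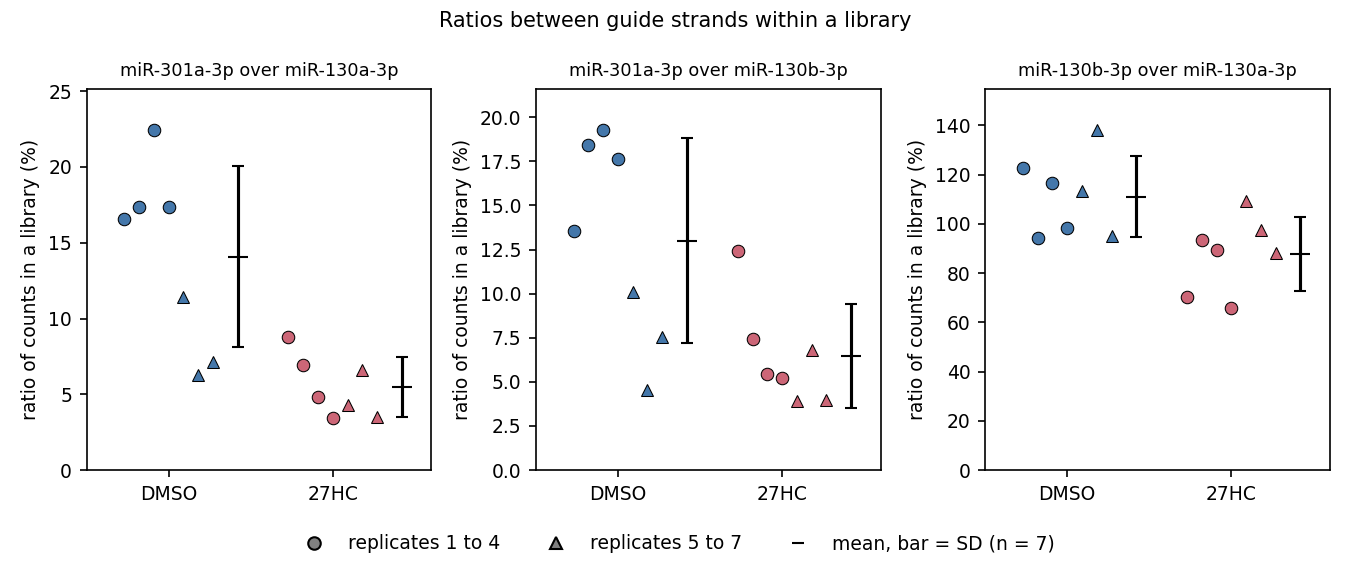
Counts of a guide strand as a percentage of the counts of another in the same library, with circles for replicates 1 to 4, triangles for replicates 5 to 7, and the mean and SD of each group (n = 7). miR-301a-3p over miR-130a-3p averages 14.1% in DMSO and 5.49% with 27HC, and miR-130b-3p over miR-130a-3p averages 111% and 87.7%.

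Summed over its 6 members, the family made up 0.226% ± 0.0273 of all counts in DMSO and 0.205% ± 0.0244 with 27HC (SD, n = 7 each). The sum was 2252 ± 188 CPM and 2073 ± 169 CPM, and no test was made on it. Within the guide strands, the mean share of miR-130a-3p was 44.3% in DMSO and 51.7% with 27HC, and that of miR-130b-3p was 48.8% and 44.9%. The share of miR-301a-3p was 6.21% and 2.84%, and that of miR-301b-3p 0.697% and 0.559%.

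Names whose seed is shifted by a base against that of the family and shares 6 of its 7 letters were examined next. These are miR-19a-3p and miR-19b-3p, of the miR-17-92 cluster, and miR-148a-3p, miR-148b-3p and miR-152-3p, known for repressing DNA methyltransferases. One sequence of each kind is shown, with the seed in capitals.
miR-19b-3p: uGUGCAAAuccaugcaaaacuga
miR-148a-3p: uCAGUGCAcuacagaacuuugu

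All 5 were tested and 0 were called, by edgeR at an adjusted p under 0.05, and 0 had an unadjusted p under 0.05, where 12.6% and 22.2% of all tested names did. With 5 names, counts of 0 cannot be set apart from those shares. Their median log2 fold change was 0.088, against 0.010 over all tested names. The log2 fold changes were −0.24 (SE 0.15) for miR-19a-3p, −0.27 (SE 0.15) for miR-19b-3p, 0.18 (SE 0.13) for miR-148a-3p, 0.088 (SE 0.13) for miR-148b-3p and 0.18 (SE 0.21) for miR-152-3p. Their intervals, drawn with those of the members in the plot of fold changes, all included 0.

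Across the 14 libraries the tested members followed each other weakly. Pearson's r of log2 CPM was −0.032 between miR-301a-3p and miR-130a-3p, 0.37 between miR-301a-3p and miR-130b-3p and −0.26 between miR-130b-3p and miR-130a-3p, given as descriptions of libraries that share treatment, set and depth. Over deviations from the group means the values were 0.28, −0.25 and −0.055, so the sign of the first and the second depended on the measure. The names outside the family with the highest r to miR-301a-3p over these libraries were miR-532-5p (r = 0.90), miR-103-3p (r = 0.89) and miR-191-5p (r = 0.83). Their log2 fold changes with 27HC were −0.38, −0.61 and −0.44, with edgeR adjusted p of 0.103, 0.00906 and 0.0736. For miR-130b-3p they were let-7a-5p (r = 0.77), let-7g-5p (r = 0.70) and let-7f-5p (r = 0.67), all of which were called lower, at −0.44, −0.44 and −0.61. Over all tested names 8.79% were called lower. The r over both groups holds the treatment difference, so the choice of names and their calls are not independent. The let-7 names differ from each other by few bases and may share reads.

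For miR-130a-3p the likeness was weaker, with miR-486b-3p (r = 0.63), miR-486a-3p (r = 0.63) and miR-128-3p (r = 0.59), none of them called. miR-486a-3p and miR-486b-3p had the same mean with 27HC, 290 CPM, and may share reads. Over deviations from the group means, r was 0.83, 0.76 and 0.72 for the 3 names nearest miR-301a-3p and 0.59, 0.59 and 0.58 for those nearest miR-130a-3p, in the order given. For miR-130b-3p it was lower, at 0.50, 0.40 and 0.22. By that measure other names ranked higher, and 1 of the 3 names stayed among the 3 highest for miR-301a-3p and 0 for each of the others.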

How the data were processed

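Small RNA libraries were made from sEV RNA with the QIAseq miRNA kit, per the labels' protocols. The authors deposited raw counts, as whole numbers, for each mature name in each library, and these were used as they stood. The submitters' processing notes name GRCm39 (mm39), R 4.1.2, edgeR and limma without a role. The aligner, the rule for reads matching several names and the use of molecular identifiers are not given in the sources used here, so a count may be a read or a molecule. Every library was matched to a label, and 0 columns were left unmatched. All 42 pairs of libraries within groups differed by more than sampling noise (lowest chi-square per degree of freedom 5.62).

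Counts were compared in edgeR 4.0.16 (R 4.3.3) by the quasi-likelihood test with treatment as the only term, TMM scaling and filterByExpr (minimum count 10, minimum total 15). This kept 239 names with 99.4% of all counts and left out 1456. A name was called where its Benjamini-Hochberg adjusted p was under 0.05. On simulated counts for the comparison of 27HC with DMSO, with 200 of 1695 names changed 4-fold, 237 names were tested, 30 of the 30 changed ones among them were called, and so was 1 unchanged name. The simulation gave every name the same dispersion and held no replicate sets. Its changes were larger than those fitted for the family, so it does not measure how often changes of that size are found. Ratios within a library used log2 of counts plus 0.5 and an exact permutation test. Named miRNAs were the members, their other arms, names with the same or an offset seed, and the 3 tested names with the highest Pearson correlation to each tested member. Alternatives covered scaling, filter, tool (DESeq2 1.42.0, limma-voom 3.58.1), replicate block, replicate set, pseudocount and each library left out. Depth as a covariate and levels under other scalings were added after seeing the data. The members, lists and replicate sets were chosen with earlier results of these data known. Sequences are from RefSeq and gene models from GENCODE M21 (both GRCm38), so positions are those of the annotation, not of the reads counted.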

Additional observations from a re-analysis of the deposited data

Results flagged for a closer look

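A library far from the others of its group was looked for among 22 groups of 7 values, where chance gives about 1 in 20 and 2 were found. In 27HC replicate 7 the level of miR-301b-3p was 41.0 CPM, which is 5 counts, and the next highest 27HC library was at 14.97 CPM. miR-301a-3p was equal to 12.4% of miR-130b-3p in 27HC replicate 1, and the next highest 27HC library was at 7.44%. Without 27HC replicate 1 the log2 difference of that ratio between the groups was −1.08, with an adjusted exact permutation p of 0.0184.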

How the results depend on the processing

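The 30 calls over all names became 12 in replicates 5 to 7 alone and 42 in replicates 1 to 4 alone. With a term for replicate set they were 39. Higher calls, 9 in the whole series, were 16 in replicates 1 to 4 and 5 in replicates 5 to 7, and lower calls, 21 in the whole series, were 7 in replicates 5 to 7 and 12 with a mean count of at least 100. Tested names numbered 239 in the whole series, 242 in replicates 1 to 4 and 198 in replicates 5 to 7. They numbered 110 with a mean count of at least 100 and 1695 with no filter, so these counts of calls are out of different totals. Upper-quartile scaling split the calls into 7 higher and 30 lower and called miR-130b-3p at −0.32. Without a filter the median log2 fold change, over more names, was −0.19. Calls on the difference between replicate sets, 0 at first, were 1 with the 10 most abundant names left out of the scaling, 9 with no filter, 2 with a mean count of at least 100, 3 with robust dispersion and 3 with DESeq2. That difference changed sign for miR-130a-3p with no filter, at 0.13, and for miR-130b-3p with library totals only, at −0.028; the cause was not tested. In replicates 5 to 7 the ratios missed the threshold at −0.72, −0.50 and −0.22, a set in which no p can pass it.

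With each library left out in turn, calls ran from 21 to 34, higher calls from 7 to 12, lower calls from 13 (without 27HC replicate 4) to 24, and calls on the difference between sets from 0 to 3. The log2 fold change of miR-301a-3p ran from −1.40 to −1.04, that of miR-130b-3p from −0.27 to −0.14 and that of miR-130a-3p from 0.055 to 0.22. The ratio of miR-301a-3p over miR-130a-3p ran from −1.42 to −1.13, over miR-130b-3p from −1.13 to −0.79, and miR-130b-3p over miR-130a-3p from −0.40 to −0.28.

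Libraries with the same number deviated together at r between 0.069 and 0.60, with replicate 2 lowest, and within replicate sets at r between −0.11 (replicate 4) and 0.29, so the numbers were not taken as pairs, and not every library correlated best with its own number. With the replicate block 37 names were called, 13 higher and 24 lower, and miR-301a-3p was at −1.24 (adjusted p 0.0178). Sign flips within numbers gave the ratios an adjusted exact p of 0.0469 each. In the other alternatives in which miR-301a-3p could be tested its adjusted p was between 0.00303 and 0.0375; it was not tested with a mean count of at least 100 or in replicates 5 to 7 fitted alone.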

Other observations

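The tested miRNAs whose hairpins lie within 1 Mb of a family hairpin were looked up after the values of the family were seen, and all of them were near Mir301 on chromosome 11. miR-142a-3p and miR-142a-5p, from a hairpin 643774 bases away and abundant in blood cells, had log2 fold changes of −1.53 (SE 0.20, edgeR adjusted p 3.55e-05) and −0.74 (SE 0.20, adjusted p 0.0223). miR-142b, read from the opposite strand of the same place, had −0.13 (SE 0.32, adjusted p 0.871). miR-21a-5p, 528845 bases from Mir301 on the other side, had −0.020 (SE 0.081, adjusted p 0.934). Of these 4 neighbours, 2 were called lower and 2 were not called. The 2 called names are the arms of the same hairpin. Over all tested names 8.79% were called lower, and counts this small cannot be set apart from that share.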
